A study of Homo sapiens with 16 samples.

Results

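The CDC14 and CDC25 families of cell cycle phosphatases were followed through 16 arrays of MCF10HER2 cells. The members were every probe whose gene symbol in the deposited table is CDC14A, CDC14B, CDC25A, CDC25B or CDC25C. These are 5 genes of 18190 symbols and 10 probes of 20589. The families were chosen by the measured intensities of a very bright CDC14B probe (ILMN_1627), which peak at 3 h and again at 24 h, so the course of that probe is described here and not tested.

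MCF10HER2 cells are a derivative of MCF10A, a nontransformed human breast epithelial line, that was made to over express the receptor HER2, a tyrosine kinase, in a stable manner. Parallel cultures grown in insulin-free, serum-free medium with EGF received CP724,714, an inhibitor of the HER2 kinase, at 1 µM with a change of medium, and RNA was taken every 3 h up to 45 h. Only the culture at 0 h was untreated, there was a single array for each time, and no vehicle-treated culture was analysed here, so drug, fresh medium and time in culture cannot be told apart. P-values therefore measure the scatter of single arrays about a curve in time and not the spread between replicate cultures.

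CDC25 proteins are dual-specificity phosphatases that remove inhibitory phosphates from cyclin-dependent kinases (CDKs) and so switch on the kinases that drive entry into S phase and mitosis. WEE1 and PKMYT1 place those phosphates, and checkpoint kinases and 14-3-3 proteins hold CDC25 proteins inactive. CDC14 proteins are related phosphatases that act in the other direction: they remove phosphates that CDKs have placed on their substrates, a role best known from mitotic exit in yeast, and human CDC14B is largely nucleolar.

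Promoter sequences are shown for the 3 members whose courses carry most of what follows: CDC14B, with the widest course, CDC25A, which fell late, and CDC25C, which rose early. RefSeq lists 3 start sites for CDC14B, 1 for CDC25A and 4 for CDC25C (build GRCh38.p14), and the entry with the most motif letters is printed for each. Which start site these cells used was not measured. Each window covers 300 bases on the gene's strand, 5′ to 3′, and the transcript starts at base 251. Capitals mark the letters of the searched motifs on either strand, which were the cyclic AMP response element (TGACGTCA), the CCAAT box (CCAAT), the cell cycle homology region or CHR (TTTGAA), the E2F site (TTTGGCGC or TTTCCCGC), the E-box (CACGTG) and the FOXO site (GTAAACA). The CDC14B window is chr9:96619794-96620093 on the minus strand, that of CDC25A is chr3:48188368-48188667 on the minus strand, and that of CDC25C is chr5:138331828-138332127 on the minus strand.
CDC14B: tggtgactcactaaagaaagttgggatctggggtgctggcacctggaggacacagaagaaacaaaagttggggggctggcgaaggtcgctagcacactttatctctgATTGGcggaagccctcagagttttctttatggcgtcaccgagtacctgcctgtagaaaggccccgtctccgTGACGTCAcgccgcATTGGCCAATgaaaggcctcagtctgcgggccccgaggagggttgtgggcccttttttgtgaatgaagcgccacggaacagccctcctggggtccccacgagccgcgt
CDC25A: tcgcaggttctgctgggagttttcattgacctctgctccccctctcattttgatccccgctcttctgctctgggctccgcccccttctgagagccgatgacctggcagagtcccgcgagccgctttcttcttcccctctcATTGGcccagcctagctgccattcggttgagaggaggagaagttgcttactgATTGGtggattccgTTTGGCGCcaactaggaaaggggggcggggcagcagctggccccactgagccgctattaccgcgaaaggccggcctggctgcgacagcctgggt
CDC25C: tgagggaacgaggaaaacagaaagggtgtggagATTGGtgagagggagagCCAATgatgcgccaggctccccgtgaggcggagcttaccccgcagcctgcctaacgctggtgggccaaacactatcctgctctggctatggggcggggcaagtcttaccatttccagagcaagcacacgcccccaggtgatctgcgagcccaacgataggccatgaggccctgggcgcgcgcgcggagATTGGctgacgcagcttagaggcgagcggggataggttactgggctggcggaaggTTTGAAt

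The CDC14B window held 1 cyclic AMP response element, 72 bases before the start site, and 3 CCAAT boxes, of which the nearer pair lay 58 and 53 bases before it on opposite strands. The other 2 CDC14B windows held none of the motifs. CDC25A had 1 E2F site, 44 bases before the start site, and CCAAT boxes at 110 and 58 bases. CDC25C had 3 CCAAT boxes and 1 CHR, the latter at base 294, after the start site at base 251. Among the other CDC25C windows, 1 (chr5:138331755-138332054) overlaps the printed one. Its 1 CCAAT box and 1 CHR are the same letters as the last CCAAT box and the CHR printed here, with the CHR 30 bases before its own start site. The other 2 held none of the motifs. Among all 35116 promoter windows of the same length, 1.85% held the cyclic AMP response element, 34.6% the CCAAT box, 15.2% the CHR and 2.27% the E2F site. Counted by gene over all of its windows, the shares were 2.25%, 39.7%, 18.2% and 2.75%. The printed windows were picked for their motif letters, so their matches are not set against these shares as a result. These matches describe the letters of the windows and do not show that a factor bound there.

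Between 10363 and 11436 probes were detected per array, and 12321 probes with a detection p-value under 0.05 on 3 or more arrays were tested. The array background was 136 to 149 intensity units on the 8 arrays from 0 to 21 h and 164 to 174 on the 8 arrays from 24 to 45 h, so slopes were fitted within each of these sets of 8. Each set still held a large step between successive arrays. Over all tested probes the root mean square step was 0.33 (log2) from 9 to 12 h and 0.21 from 33 to 36 h. The basal epithelial markers KRT5, KRT17 and ITGB4 were detected on 16 arrays, whereas KRT14 was detected on 1 array and LAMB3 on 2. Of 7 luminal epithelial markers, 5 were detected on all 16 arrays and 2 on 0 arrays, so markers of both epithelial types were present. The fibroblast markers COL1A1 and COL1A2 and the endothelial markers CDH5 and VWF were detected on 0 arrays. The fibroblast marker DCN, the leukocyte markers CD14 and CD68 and the endothelial marker PECAM1 were detected on all 16. All 4 rose over 0 to 21 h, CD68 by 2.49, CD14 by 0.50, PECAM1 by 0.36 and DCN by 0.20 on the log2 scale (adjusted p = 5.14e-05, 5.92e-05, 0.000572 and 0.0332), and their part in the members' courses was not tested. The ERBB2 probe was detected on 7 arrays, and whether the transgene carries the sequence this probe reads is not known here.

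CDC14A was not measurable on these arrays. Probe ILMN_22859 was detected on 0 of 16 arrays and had intensities of 139 to 204. Probe ILMN_2953 was also detected on 0 arrays, with intensities of 127 to 188. Probe ILMN_7206 was detected at 6 h and 21 h only, with intensities of 167 to 229. All 3 stayed at the level of the array background and were left out of the tests, so 7 of the 10 member probes were tested.

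CDC14B gave 1 very bright probe and 2 dim ones. The bright probe ILMN_1627 was detected on all 16 arrays. From 17856 intensity units at 0 h it went up to 46023 at 3 h, and it then declined to 27939 at 6 h and 7445 at 9 h. At 3 h it stood 312 times above the array background. From 12 to 21 h it read 3288, 3379, 2271 and 3271. A plateau thus followed the early peak: the 12 to 21 h arrays had a mean normalized level of 11.61 on the log2 scale (SD 0.09, n = 4 time points), against 14.48 (SD 0.90, n = 4) for 0 to 9 h.

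The 24 h array then stood apart from its neighbours on both sides. ILMN_1627 read 14716 at 24 h and 3302 at 27 h. It read 7414 at 30 h and 8813 at 33 h, a further rise of CDC14B over 2 successive arrays. On the last 4 arrays it read 2419, 2207, 2798 and 2263. These were the lowest normalized levels of CDC14B, with a mean of 10.89 (SD 0.15, n = 4). Even its lowest normalized level, at 45 h, was 13.2 times above background in intensity, so the falls are not set by the limit of detection.

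On the normalized log2 scale the CDC14B bright probe went from 13.93 at 0 h to 15.63 at 3 h and 10.69 at 45 h, a range of 4.94 or 30.7-fold. Its level was 3.25-fold that of 0 h after 3 h, 1.77-fold after 6 h and 0.106-fold after 45 h. By the study's criterion of a 1.7-fold change, taken here against 0 h, CDC14B was higher at 2 time points and lower at 11. Since this probe was chosen for its course, its passing is not counted as a result. Among the 5 tested member probes other than it and the dim CDC14B probe ILMN_138249, described below, only CDC25C passed the criterion at any time point. The same criterion was met by 19.5% of all tested probes, with 10.9% higher and 9.47% lower at some time point.

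The steps of CDC14B were large beside those of other probes on the same arrays. The rise from 0 to 3 h was 3.25-fold, and 7 of 12321 tested probes, CDC14B included, rose as much (0.0568%). The fall from 9 to 12 h was 1.92, and 6 probes, again with CDC14B, fell as much. The rise from 21 to 24 h (2.15), the fall from 24 to 27 h (2.25), the rise from 27 to 30 h (1.06) and the fall from 33 to 36 h (1.90) were each the largest of all 12321 probes at that step. These ranks describe a probe that was chosen for this course and are not a test.

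Only 5 tested probes (0.0406%) were 1.7-fold or more higher at 24 h than at both 21 h and 27 h. Beside CDC14B, for which the smaller of the rise and the fall was 2.15, these were NDRG1, a stress-responsive gene (1.09), RRM2, a subunit of ribonucleotide reductase (0.92), P4HA1, a collagen prolyl hydroxylase subunit (0.91), and F3, tissue factor (0.80). These 4 genes were chosen after their values were seen. The pattern at 24 h rests on 1 array, and whether it belongs to the culture or to the array was not tested.

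**Figure D1:**
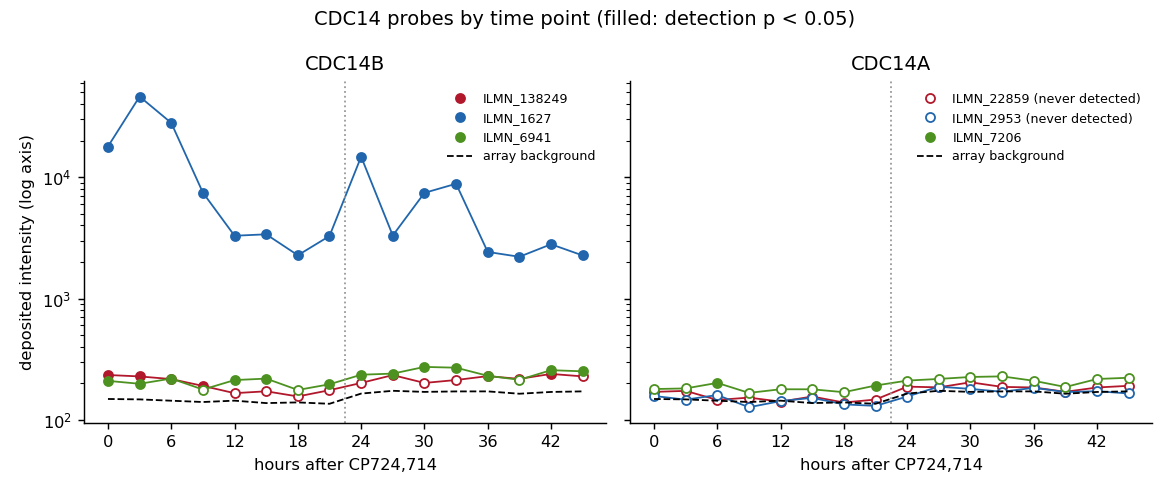
Deposited intensity (log axis) of the 3 CDC14B probes and the 3 CDC14A probes against hours after CP724,714; filled points have a detection p-value under 0.05, the dashed line is the array background and the dotted line separates the arrays up to 21 h from those from 24 h. The bright CDC14B probe peaks at 46023 at 3 h and returns to 14716 at 24 h, while all CDC14A probes stay between 127 and 229.

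The other CDC14B probes did not share this range. ILMN_138249 was detected on 6 arrays (0, 3, 6, 9, 27 and 42 h), with intensities of 156 to 239 and a normalized range of 0.12 on the log2 scale. It read 8.02 in the untreated culture, 8.04 after 3 h and 7.92 after 12 h. It was thus highest on the first 4 arrays, and it did not share the rise of the bright probe at 24 h, where it read 7.93. Its slope was -0.11 (SE 0.03) over 0 to 21 h and 0.03 (SE 0.03) over 24 to 45 h. The probe met the requirement of detection on 3 arrays mainly through the first 4, on which it was high, so these slopes are given as a description and the probe is left out of the counts of members that passed a test. Its correlation with the bright probe was 0.91 over the 8 arrays to 21 h and -0.80 over the 8 arrays from 24 h, a description over arrays that both probes share. Since the probe was not detected on 10 arrays, its lower values are bounds.

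ILMN_6941, the remaining CDC14B probe, was detected on 13 arrays with intensities of 177 to 274. It ranged over 0.07 on the log2 scale, with its lowest value of 7.95 at 39 h and its highest of 8.02 at 15 h. At 3 h it read 7.97, slightly under its 7.98 at 0 h. It did not pass the test of time dependence (adjusted p = 0.919). The sequences these 3 probes read, and so the transcripts they can tell apart, were not analysed here, and cross-hybridisation of the bright probe was not tested.

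Time dependence was tested with a spline of time with 4 degrees of freedom in limma, and 41.9% of all tested probes passed at an adjusted p under 0.05. Of the 5 member probes counted, which leave out the bright CDC14B probe and ILMN_138249, 1 passed: CDC25A (adjusted p = 0.00512). CDC25A too was detected mainly on arrays on which it was high, as set out below, so its pass is given as a description. For a straight line over 45 h, which 24.4% of all tested probes passed (12.9% higher and 11.5% lower with time), 0 of the 5 passed in limma, and 0 had an unadjusted p under 0.05. The change over 45 h had a 95% interval (14 residual degrees of freedom) of -0.36 to 0.05 for CDC25A, -0.28 to 0.44 for the bright CDC25B probe and -0.56 to 0.70 for CDC25C on the log2 scale. The slopes of the CDC25 genes that passed lay within a set of 8 arrays.

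CDC25A, the family member most tied to entry into S phase, was low throughout, with its highest normalized levels at 9, 12 and 24 h. From 0 to 9 h probe ILMN_1663 read 8.16, 8.17, 8.24 and 8.47 on the log2 scale. From 12 to 21 h CDC25A read 8.45, 8.33, 8.29 and 8.29. Its level at 9 and 12 h was thus approached most closely by the 24 h array, described next. The 9 h array was dim (upper quartile 397 intensity units, against 558 at 12 h), and the deposited intensity of CDC25A was 323 at 9 h, close to its 313 at 0 h, and 431 at 12 h, so its level at 9 h rests on the normalization. From 24 to 33 h it read 8.44, 8.37, 8.34 and 8.31. From 36 to 45 h it read 8.14, 8.10, 8.08 and 8.10. In normalized level these last 4 arrays did not overlap with the 8 arrays from 12 to 33 h. Their deposited intensities (296 to 348), however, lay above the 281 of the 18 h array, which was also dim (upper quartile 418). How many of all tested probes were split in this way, here or for CDC25B and CDC25C below, was not counted.

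The slope of CDC25A over 24 to 45 h was -0.40 (SE 0.09, adjusted p = 0.015), a fall shared by 2.19% of all tested probes. Its largest step on these arrays was a fall of 0.17 from 33 to 36 h, where 12.1% of all tested probes fell as much. The slope of CDC25A over 0 to 21 h was 0.15 (SE 0.09, adjusted p = 0.21). The later slope lay 0.55 below the earlier one (difference -0.55, SE 0.12, adjusted p = 0.00535). Leaving out the 24 h or the 42 h array took the late fall to the far side of the threshold (adjusted p = 0.0926 and 0.0614), whereas the difference passed without any single array. With background correction from the signals alone and an offset of 50, the difference was -1.51 and the late slope -1.09.

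CDC25A was detected on 9 of 16 arrays, and its detection p-values need care. For most probes they are multiples of 1 in 708, the step that the number of control probes would give, but for 1504 probes (7.30%), CDC25A and CDC14A ILMN_22859 among them, they are not. At 0 h CDC25A had an intensity of 313 and a detection p-value of 0.242, whereas 985 probes on the usual steps with a p between 0.2 and 0.28 had a median intensity of 173 and a highest of 176. The count of arrays on which CDC25A was detected is therefore not comparable with that of the other members. Its intensity was 281 to 581, that is 1.80 to 3.52 times the array background.

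CDC25B, which acts at the start of mitosis and at centrosomes, had a bright probe and a dim one. ILMN_137102 was detected on all 16 arrays with intensities of 3370 to 9135. On the first 4 arrays it read 12.59, 11.98, 12.54 and 12.47 (log2). From 12 to 21 h CDC25B read 12.70, 12.76, 12.82 and 12.82. All 4 of these normalized levels exceeded each of the first 4 arrays, and the 3 h array was the lowest of the course. This split rests on the normalization: the deposited intensities at 12, 15 and 18 h (6480, 7282 and 4963) lay below the 7540 at 0 h. The share of all tested probes split in this way was not counted. The step from 9 to 12 h was also the largest over all tested probes (root mean square 0.33 on the log2 scale). From 24 to 45 h the values lay between 12.43 and 12.77, with no set of 4 apart from another.

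CDC25B rose over 0 to 21 h by 0.56 (SE 0.18, adjusted p = 0.0294), as did 14.6% of all tested probes. Its slope over 24 to 45 h was -0.18 (SE 0.18, adjusted p = 0.65). The slopes differed by -0.74 (SE 0.26, adjusted p = 0.0456). This call was close to the threshold: it held without 5 of the 16 arrays taken out in turn, and without the 3 h array the difference was -0.51 (adjusted p = 0.0901) and the early slope 0.32 (adjusted p = 0.139). Without the 0 h array the early slope was 0.84 (adjusted p = 0.00312), and the spline then passed for CDC25B (adjusted p = 0.00398, against 0.213 with all arrays). The early rise of CDC25B missed the threshold without the 15, 18 or 21 h array (adjusted p = 0.0522, 0.0718 and 0.0623) as well as after median scaling (0.80, adjusted p = 0.0659) and with no detection filter (0.56, adjusted p = 0.0569). The dim CDC25B probe ILMN_137183 was detected at 3, 12 and 30 h, ranged over 0.08 and passed none of the tests (spline adjusted p = 0.744).

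CDC25C, which activates the mitotic CDK1 and is held back by 14-3-3 proteins, had the widest course of the CDC25 genes. Probe ILMN_16127 was detected on all 16 arrays with intensities of 280 to 1077. From 0 to 9 h it read 8.72, 8.24, 8.30 and 8.31 (log2). From 12 to 21 h CDC25C read 8.93, 9.14, 9.26 and 9.60. All 4 of these normalized levels lay above the first 4 arrays, and the 21 h value was 1.83-fold that at 0 h, the only time point past the 1.7-fold criterion. At 18 h the deposited intensity (575) was below that at 0 h (620), so the place of the 18 h array rests on the normalization. As for CDC25B, the share of all tested probes split between these sets of arrays was not counted. From 24 to 33 h it read 8.38, 8.79, 8.89 and 9.12. From 36 to 45 h it read 8.59, 8.51, 8.56 and 8.48. CDC25C thus climbed within each of the 2 middle sets of 4 arrays and stayed within 0.11 on the last 4.

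CDC25C rose over 0 to 21 h by 1.20 (SE 0.27, adjusted p = 0.00354). Its slope over 24 to 45 h was -0.17 (SE 0.27, adjusted p = 0.785), and the slopes differed by -1.37 (SE 0.38, adjusted p = 0.015). Without the 45 h array the difference missed the threshold (-1.27, adjusted p = 0.0526). The spline did not find CDC25C time-dependent (adjusted p = 0.151) and did so when either the 0 h or the 24 h array was left out (adjusted p = 0.0264 and 0.00353).

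The largest steps of CDC25C fell at 12, 24 and 36 h. It rose by 0.62 from 9 to 12 h, fell by 1.22 from 21 to 24 h and fell by 0.53 from 33 to 36 h. A fall of this size at 24 h was shown by 24 of 12321 probes, CDC25C included (0.195%). These 3 steps divide the course into sets of 4 arrays, and 2 of the 3 largest steps of the bright CDC14B probe, at 12 and 24 h, lay at the same borders. Over all tested probes the median size of a step was 0.07 at these borders and 0.05 elsewhere. For CDC25C it was 0.62 and 0.11 and for CDC14B 1.92 and 0.35. The borders are the largest steps of CDC25C itself, and CDC14B was chosen for its course, so these 2 contrasts are no test. The bright CDC25B probe had 0 of its 3 largest steps at these borders (medians 0.17 and 0.12), and CDC25A had 2 (0.16 and 0.03). The medians over all tested probes pool unlike steps. Their root mean square step was 0.33 from 9 to 12 h, the largest of the course, after 0.31, 0.29 and 0.23 for the steps from 0 to 9 h. From 33 to 36 h it was 0.21, against 0.09 for the step before and 0.10 for the step after. From 21 to 24 h it was 0.17, against 0.12 before and 0.16 after. The labels name no batch, and whether the arrays were handled in sets of 4 was not tested.

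Counted together, 2 of the 5 member probes rose over 0 to 21 h (14.6% of all tested probes) and 0 fell (15.6%). Over 24 to 45 h 1 fell (2.19%) and 0 rose (2.88%), and the unadjusted limma p was under 0.05 for the same count of each. The later slope lay below the earlier one for 3 probes, 1 of each CDC25 gene (12.1% of all tested probes), and above it for 0 (12.7%), so that the slopes of 3 of the 5 differed against 24.8% of all tested probes. The median slope over all tested probes was 0.00 in either set of arrays. CDC25A is the probe that fell late and 1 of the 3 with a slope difference. It met the detection requirement mainly through arrays on which it was high, so its part in these counts is a description.

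**Figure D2:**
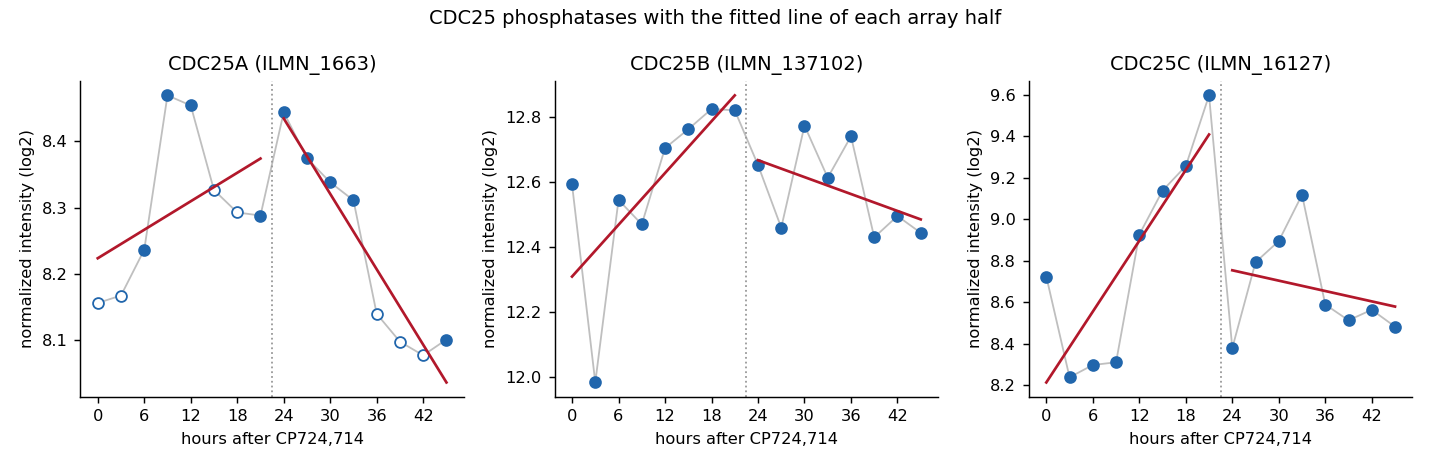
Normalized log2 intensity of CDC25A, CDC25B and CDC25C against hours after CP724,714, 1 array per point, filled where the detection p-value was under 0.05; red lines are the straight lines fitted to 0 to 21 h and to 24 to 45 h. CDC25C rises by 1.20 and CDC25B by 0.56 along the earlier line, and CDC25A falls by 0.40 along the later one.

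**Figure D3:**
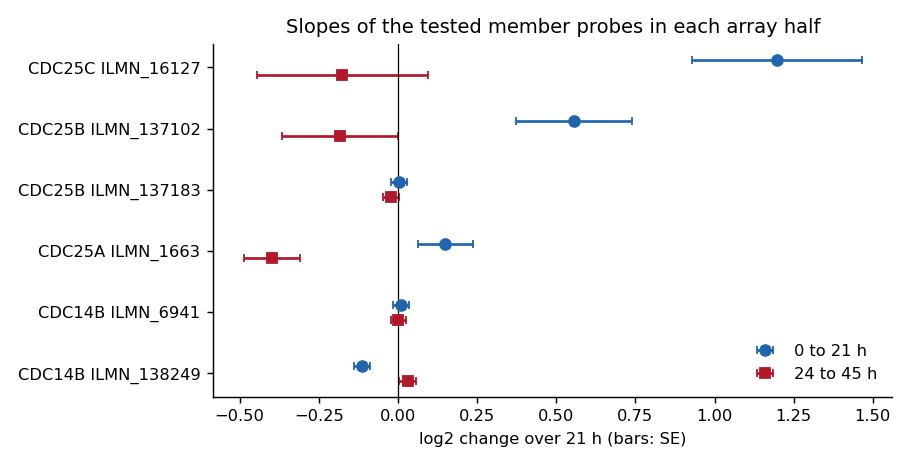
Slope of each tested member probe other than the bright CDC14B probe, as log2 change over 21 h with bars of 1 SE, for 0 to 21 h (blue circles) and 24 to 45 h (red squares). The 3 leading CDC25 probes have their later slope to the left of the earlier one, and the dim probes of CDC14B and CDC25B lie within 0.12 of 0.

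The bright CDC14B probe ran opposite to CDC25B and CDC25C on the earlier arrays, and less clearly to CDC25A. Over the 8 arrays from 0 to 21 h the correlation of the bright CDC14B probe was -0.89 with CDC25C, -0.88 with CDC25B and -0.52 with CDC25A. Over the 8 arrays from 24 to 45 h the same correlations were 0.27, 0.52 and 0.85. CDC25B and CDC25C correlated at 0.80 on the earlier arrays and at 0.28 on the later ones. All these values are across arrays that the genes share and are given as a description, those of CDC14B for a probe chosen by its course. How many of all tested probes correlated as strongly with CDC14B on the earlier arrays was not counted.

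The probes whose courses were most like the bright CDC14B probe over the 16 arrays were STT3A (r = 0.958), a catalytic subunit of oligosaccharyltransferase, IRAK1 (0.948), a kinase of interleukin-1 and Toll-like receptor signalling, MAPK6 (0.947), an atypical MAP kinase, SRPR (0.944), a subunit of the signal recognition particle receptor, and GPNMB (0.942), a membrane glycoprotein. Their ranges were far smaller than that of CDC14B. STT3A went from 11.36 to 11.71 between 0 and 3 h, read 11.15 at 24 h against 10.72 at 27 h, and ended at 10.45. It was thus high at 3 h and at 24 h as CDC14B was, but between 10.45 and 11.71 on the log2 scale.

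The probes least like CDC14B were both probes of RGS10, a regulator of G protein signalling (r = -0.963 and -0.960), FAM96B (-0.951), PCBD1 (-0.949) and the proteasome subunit PSMB4 (-0.948). RGS10 probe ILMN_27389 went from 9.83 to 9.18 between 0 and 3 h, read 9.82 at 24 h against 10.35 at 27 h, and ended at 10.62. Its lowest array was thus the one on which CDC14B was highest, and its highest the one on which CDC14B was lowest.

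CDC25C was most like genes of the kinetochore and spindle: CDCA1, now named NUF2 (r = 0.980), BUB1, a spindle checkpoint kinase (0.965), and DLG7, now named DLGAP5 (0.963). CDCA1 went from 8.59 to 8.18 between 0 and 3 h, reached 9.67 at 21 h, and read 8.51 at 24 h and 9.09 at 33 h. Like CDC25C it was high at 21 h and low again at 24 h. For CDC25A the most alike probes were KDELR3, a receptor that returns proteins to the endoplasmic reticulum (0.958), MLKL, the effector of necroptosis (0.942), and RGS20 (0.936). For CDC25B they were the proteasome subunit PSMA6 (0.863), FLJ20512 (0.854) and COX17, a copper chaperone of cytochrome c oxidase (0.849). The likeness to CDC25B lay mainly in the earlier arrays. In the same order, the correlations were 0.948, 0.945 and 0.940 over 0 to 21 h but 0.473, 0.406 and 0.326 over 24 to 45 h.

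**Figure D4:**
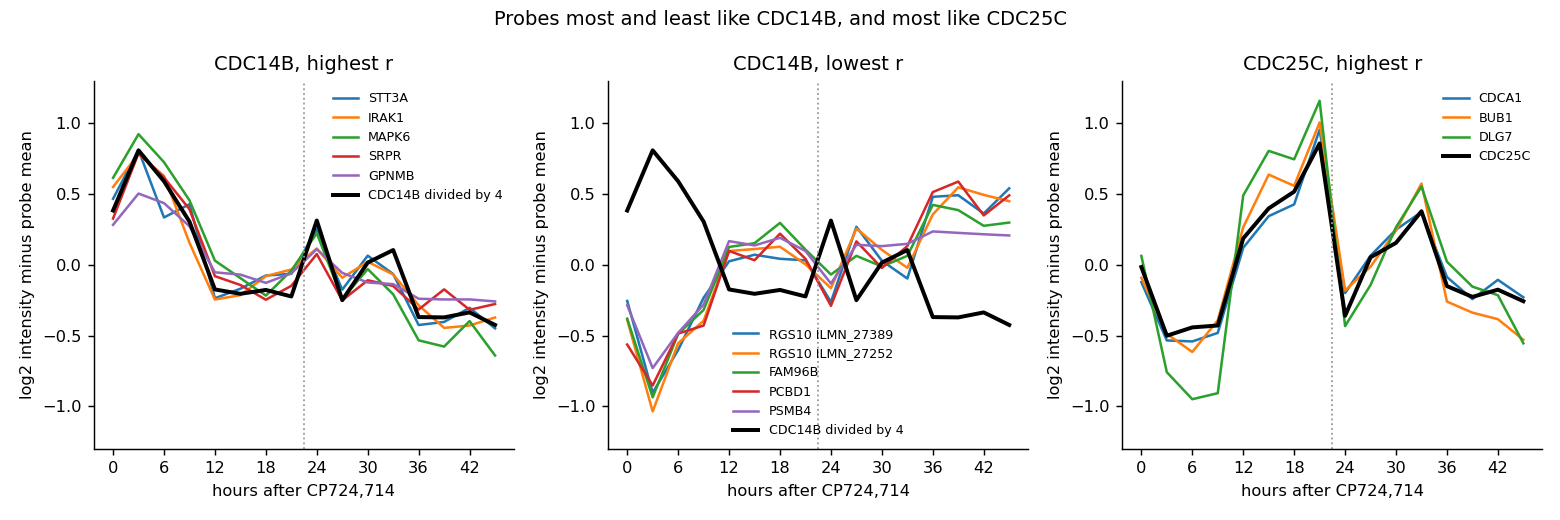
Log2 intensity minus each probe's mean against hours after CP724,714: the 5 probes with the highest and the 5 with the lowest correlation with the bright CDC14B probe (its own course divided by 4, black), and the 3 probes most like CDC25C (black, undivided). The left panel shows the high values at 3 h and 24 h that STT3A shares with CDC14B, and the right panel the peak at 21 h that CDCA1, BUB1 and DLG7 share with CDC25C.

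The CDKs on which CDC25 acts and their cyclin partners were followed next. Of 8 CDK and cyclin genes, 7 were tested, and CCNE1 was detected on 0 arrays. Over 0 to 21 h 3 rose (14.6% of all tested probes): CDK1, listed under its older symbol CDC2, by 1.86 (SE 0.42, adjusted p = 0.00362), CDK2 by 1.31 (SE 0.20) and cyclin A2 (CCNA2) by 1.92 (SE 0.46). Cyclin A1 (CCNA1) fell by 2.90 (SE 0.33), where 15.6% of all tested probes fell. CCNA2 thus rose in the same interval as CDC25C, while the other A-type cyclin moved the other way. The later slope lay below the earlier one for 4 of the 7 (12.1% of all tested probes), among them CDK1 (-2.73, adjusted p = 0.00428). CCNE2, detected on 4 of 16 arrays, had a slope of -0.58 over 24 to 45 h (adjusted p = 0.0181), and most of its values are bounds. The B-type cyclins CCNB1 and CCNB2 had early slopes of 1.32 and 0.60 that missed the threshold (adjusted p = 0.112 and 0.248). CDK1, CDK2, CCNE2, CCNB1 and CCNB2 are outside the rule for named genes and were chosen after their values were seen, as were WEE1, PLK1, CHEK1 and NFYC named next.

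Both tested kinases that oppose CDC25 had early slopes short of the threshold. PKMYT1 had slopes of 0.74 and -1.02, and their difference passed (-1.76, adjusted p = 0.0231). WEE1 had slopes of 0.21 and 0.09 (difference adjusted p = 0.745). Of 9 tested checkpoint and polo kinases that act on CDC25, 0 rose and 3 fell over 0 to 21 h (14.6% and 15.6% of all tested probes), the largest falls being those of MAPKAPK2 (-0.96, adjusted p = 0.00814) and PIM1 (-0.95, adjusted p = 0.0402). The polo kinase PLK1 had a slope of 0.06 (adjusted p = 0.711). After median scaling in place of quantile normalization, MAPKAPK2 and PIM1 missed the threshold (adjusted p = 0.0724 and 0.133), and the checkpoint kinase CHEK1 rose by 0.71 (adjusted p = 0.0374), against 0.56 (adjusted p = 0.0664), so that 1 rose and 1 fell.

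Of the 7 genes of 14-3-3 proteins, which bind phosphorylated CDC25, 3 fell along a straight line and 0 rose (11.5% and 12.9% of all tested probes), and 2 fell after median scaling. SFN (14-3-3 sigma) fell by 1.67 (SE 0.22) along the line over 45 h and by as much, 1.67 (SE 0.18), over the arrays from 0 to 21 h. YWHAB fell by 0.43 over 45 h (adjusted p = 0.0126), which missed the threshold after median scaling (adjusted p = 0.0864). CDC25C rose while SFN fell, and over 24 to 45 h neither slope passed the test (SFN -0.30, adjusted p = 0.369). Among 6 tested subunits of ubiquitin ligases that target CDC25, SKP1 fell over 0 to 21 h by 0.58 (adjusted p = 0.00628) and FZR1 rose along the straight line by 0.12 (adjusted p = 0.0411). Both missed the threshold after median scaling (adjusted p = 0.19 and 0.833).

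All 16 genes of mitotic exit and cytokinesis, the phase in which CDC14 acts in yeast, were tested. Over 0 to 21 h 6 rose and 1 fell (14.6% and 15.6% of all tested probes), with a median slope of 0.43. AURKB, the kinase of the chromosomal passenger complex, rose by 1.99 (SE 0.63, adjusted p = 0.0248) and its partner CDCA8 by 1.45 (SE 0.49, adjusted p = 0.0344). The later slope lay below the earlier one for 8 genes and above it for 1 (12.1% and 12.7% of all tested probes), and for 5 and 0 after median scaling. The gene that fell, PPP2R2A, encodes a regulatory subunit of protein phosphatase 2A (-0.90, adjusted p = 0.0183), and it missed the threshold after median scaling (adjusted p = 0.0549). It was chosen after its value was seen.

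Among 11 tested transcription regulators of CDC25 genes, E2F2 rose over 0 to 21 h by 1.64 (SE 0.42, adjusted p = 0.00817), and its later slope lay below (difference -2.89, adjusted p = 0.00336). CDKN1A, the CDK inhibitor p21, fell by 1.54 over 45 h (adjusted p = 0.000302). Over 0 to 21 h 1 of the 11 rose and 3 fell (14.6% and 15.6% of all tested probes). After median scaling 1 fell, since CDKN1A and NFYC, a subunit of the CCAAT-binding factor, missed the threshold (adjusted p = 0.0692 and 0.169). Among 13 tested members of other dual-specificity phosphatases, 1 rose and 4 fell over 0 to 21 h (14.6% and 15.6% of all tested probes), and 1 and 3 after median scaling. The largest falls were those of DUSP14 (-1.52, SE 0.18) and DUSP5 (-1.28, SE 0.28), both phosphatases of MAP kinases, and DUSP5 rose again over 24 to 45 h by 1.11 (adjusted p = 0.0301), which missed the threshold after median scaling (adjusted p = 0.0567).

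**Figure D5:**
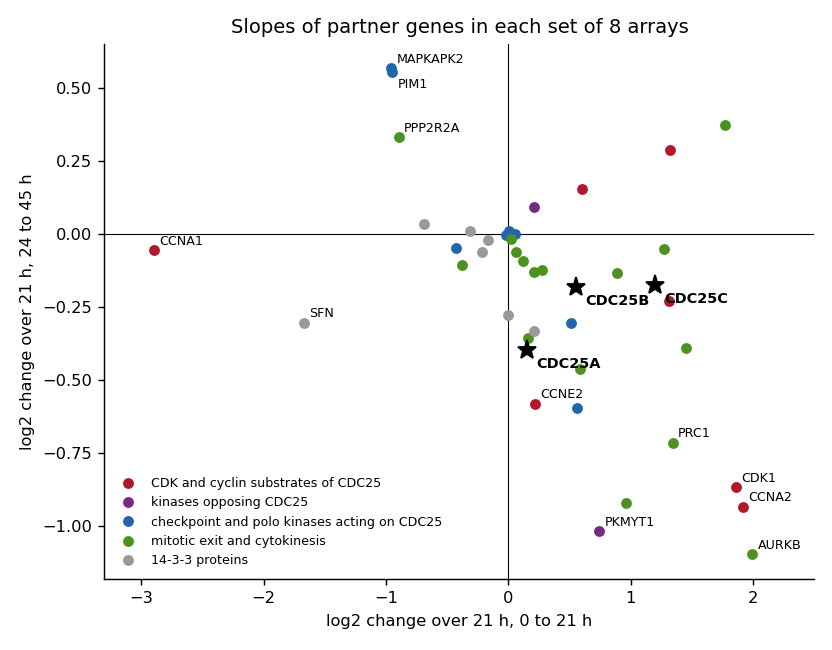
Slope over 24 to 45 h against slope over 0 to 21 h, each as log2 change over 21 h, for the tested genes of 5 partner lists (coloured points) and for CDC25A, CDC25B and CDC25C (stars). CDC25C (1.20, -0.17) lies among CDK and mitotic genes with a positive early slope, whereas CCNA1 (-2.90) and SFN (-1.67) lie far to the left. The list labelled as substrates holds CDKs and their cyclin partners.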

How the data were processed

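Cells were profiled on Illumina human Ref-8 v2 beadchips, 16 arrays with 1 per time point. The authors deposited the intensity of each probe before normalization and a detection p-value against the negative controls of the same array. Arrays were grouped by the treatment time in the labels. Intensities were background-corrected and quantile normalized with neqc (limma 3.58.1, R 4.3.3, offset 16) and taken to log2, and the offset shrinks the changes of dim probes. Tested were the 12321 probes detected (p-value under 0.05) on at least 3 arrays, which left out 40.2%. limma with a mean-variance trend gave the spline (4 degrees of freedom), the straight line (change over 45 h) and the slopes over 0 to 21 h and 24 to 45 h (change over 21 h), with Benjamini-Hochberg adjustment over all tested probes. The array background is the median of 3343 probes rarely detected. Each partner gene is given by its brightest tested probe.

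The members and lists were chosen with earlier results of these data known. Named were all member probes, the 2 largest changes past the threshold in each list, and the probes most like each member (for CDC14B also least like) by Pearson correlation. Older symbols were matched through RefSeq synonyms. Fits were tested on simulated data. Alternatives covered background correction, scaling, filter, arrays, weights, spline and fold threshold.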

Additional observations from a re-analysis of the deposited data

Results flagged for a closer look

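The slope over the 8 arrays from 24 to 45 h was set against that over the 8 arrays from 0 to 21 h. By the interaction test in limma these slopes differed in 3 of the 5 member probes counted (24.8% of all tested probes), all with the later slope below (12.1%). The later slope of CDC25C lay below the earlier one (difference -1.37 on the log2 scale over 21 h, adjusted p = 0.015), as did those of CDC25B (-0.74, adjusted p = 0.0456) and CDC25A (-0.55, adjusted p = 0.00535). CDC25A entered the test mainly through arrays on which it was high, so its difference is given as a description. For the dim CDC14B probe ILMN_138249 it lay above (0.14, adjusted p = 0.0105), but that probe entered the test mainly through the early arrays on which it was high, so this difference supports nothing. The arrays of the later set also had the higher background, so time and array set cannot be told apart.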

How the results depend on the processing

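No paired analysis was possible because no time of treatment had more than a single array. Of 712 member values recomputed under the alternatives, 671 kept their side of the threshold, 29 missed it and 11 newly passed it. The 671 include values that changed sign while missing the threshold both times. The straight line of CDC25B, for example, ran from -0.12 to 0.16 with 1 array left out. The values also cover the dim probes, ILMN_138249 among them. In 1 value the direction reversed and the threshold was passed: with array weights the straight line of CDC25C was -0.69 (adjusted p = 0.0457) against 0.07. With array weights the spline also passed for CDC25B (range 0.91, adjusted p = 0.00631) and CDC25C (1.26, adjusted p = 0.0106), as it did for CDC25C with 5 degrees of freedom (1.04, adjusted p = 0.0208) and with array set as a block (1.88, adjusted p = 0.00165). The CDC25B slope difference missed the threshold under median scaling (-1.03, adjusted p = 0.106), with no detection filter (-0.74, adjusted p = 0.0848), without the dim 9 h and 18 h arrays (-0.71, adjusted p = 0.0758) and with no variance trend (-0.74, adjusted p = 0.0527). Median scaling changed the CDC14B steps to 1.28 (0 to 3 h), -3.52 (3 to 12 h) and -1.74 (33 to 36 h), and it moved the median slope of all probes over 0 to 21 h to -0.11 and the median slope difference to 0.14. Counts of probes moved from 3004 for the straight line to 4597 (median scaling, 1637 higher and 2960 lower, against 1584 and 1420), 4641 (array weights) and 760 (array set as a block). With sets of 4 arrays as a block (an alternative added once the data had been seen) the limma count was 0, with 1049 probes at an unadjusted p under 0.05. The count for 0 to 21 h went from 3724 to 1906 (weights) and to 1391 (own fit of these arrays, likewise added later). That for 24 to 45 h went from 625 to 416 (median scaling), 3028 (weights) and 3063 (own fit). The 1.7-fold count went from 2398 to 3789 (signals alone, offset 50) and 1352 (2-fold). Leaving out 1 array at a time gave 4148 to 5916 probes for the spline, 2538 to 3139 for the straight line, 2392 (without 3 h) to 4240 for 0 to 21 h, 187 (without 24 h) to 1001 (without 0 h) for 24 to 45 h, 2225 to 3970 for the slope difference and 2265 to 2396 for 1.7-fold. Slope differences ranged from -1.02 to -0.51 for CDC25B, -1.88 to -1.18 for CDC25C and -0.63 to -0.48 for CDC25A. Spline ranges were 0.28 to 0.73 for CDC25B, 0.54 to 1.07 for CDC25C and 0.33 to 0.37 for CDC25A. The causes of these changes were not tested.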
